A study of Homo sapiens with 15 samples.

Results

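The genes described here encode Wnt ligands, their receptors and the proteins that modulate both, in cultures of kidney tubule epithelium with and without fibroblasts. They were chosen by gene symbol, as members of the WNT, FZD, SFRP, DKK, RSPO, LGR, ROR, AXIN, NKD and KREMEN families with FRZB, WIF1, LRP5, LRP6, RYK, RNF43, ZNRF3, LEF1, TCF7, TCF7L1, TCF7L2, PORCN and WLS, and 43 of the 15790 genes in the deposited table matched. These were 11 ligands, 2 genes of ligand lipidation and export, 9 Frizzled receptors, 5 co-receptors, 4 genes of the R-spondin axis, 6 secreted antagonists or their receptors, 2 AXIN scaffold genes and 4 transcription factors. Poly-A selected RNA was sequenced from 15 libraries in 5 groups of 3.

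Fibroblast monocultures held fHDF/TERT166, an immortalized line of dermal fibroblasts of human origin, recovered from the floor of the wells; they are basolateral fibroblasts in the protocol and monocultures in the titles. Silk co-cultures were seeded with RPTEC/TERT1, an immortalized human line of proximal tubule epithelium, together with fHDF/TERT166 on a LN/FN-silk membrane, and LN/PC co-cultures with the same pair of lines on a LN/PC membrane. Silk monocultures and LN/PC monocultures held RPTEC/TERT1 alone on each membrane. Seeding densities per cm2 were 140000 for the epithelium and 14000 for fibroblasts, and samples of 3 to 8 pooled membranes were taken 14 days later. Cells on silk were harvested by scraping and those on LN/PC by cutting out the membrane, so the membrane and the way of harvest cannot be told apart. Each cell type is represented by a single line, and the labels do not say whether replicates were separate cultures, so p-values reflect only the variation among these samples, possibly technical.

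Wnt proteins are lipid-modified by PORCN and carried to the cell surface by WLS, and they bind Frizzled receptors with the co-receptors LRP5 and LRP6. Binding stops the destruction of beta-catenin, which then acts with the TCF and LEF factors on target genes such as AXIN2, while ligands such as WNT5A mostly signal through ROR1, ROR2 and RYK without beta-catenin. Most secreted DKK and SFRP proteins hold the pathway back. R-spondins acting through LGR receptors keep Frizzled receptors on the surface by inhibiting RNF43 and ZNRF3. In the developing kidney, Wnt ligands of the collecting duct lineage drive the formation of nephron tubules.

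Levels are normalized counts, which are read counts adjusted for library size, and the totals per library ran from 9080000 to 12660000. Of 18 fibroblast markers all were higher in fibroblast than in epithelial monocultures, and of 17 measured proximal tubule markers 13 were lower and 4 (MME, ANPEP, AQP1 and CUBN) higher in fibroblasts. Of the tubule markers 8 were at 0 in all fibroblast libraries. The summed fibroblast markers of the LN/PC co-cultures stood at 17.3% to 30.8% of their level in fibroblast monocultures, against 0.400% to 0.455% in silk co-cultures, 0.337% to 0.419% in silk monocultures and 0.362% to 0.413% in those on LN/PC. By this measure the silk co-cultures overlapped the silk monocultures, so little fibroblast RNA was seen in them. Of the 18 markers 2 were at 0 in all silk co-cultures, 5 in all silk monocultures and 6 in all LN/PC monocultures, while none was at 0 in the LN/PC co-cultures. In bulk RNA, fewer cells of a type and less RNA per cell cannot be told apart. The endothelial and leukocyte lists had 1 measured gene each. PECAM1 reached at most 97.7 normalized counts in any library, and CD68 was above 0 in all libraries of all groups, and higher in co-cultures than in monocultures on silk (2.49 log2) and on LN/PC (1.07 log2).

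**Figure D1:**
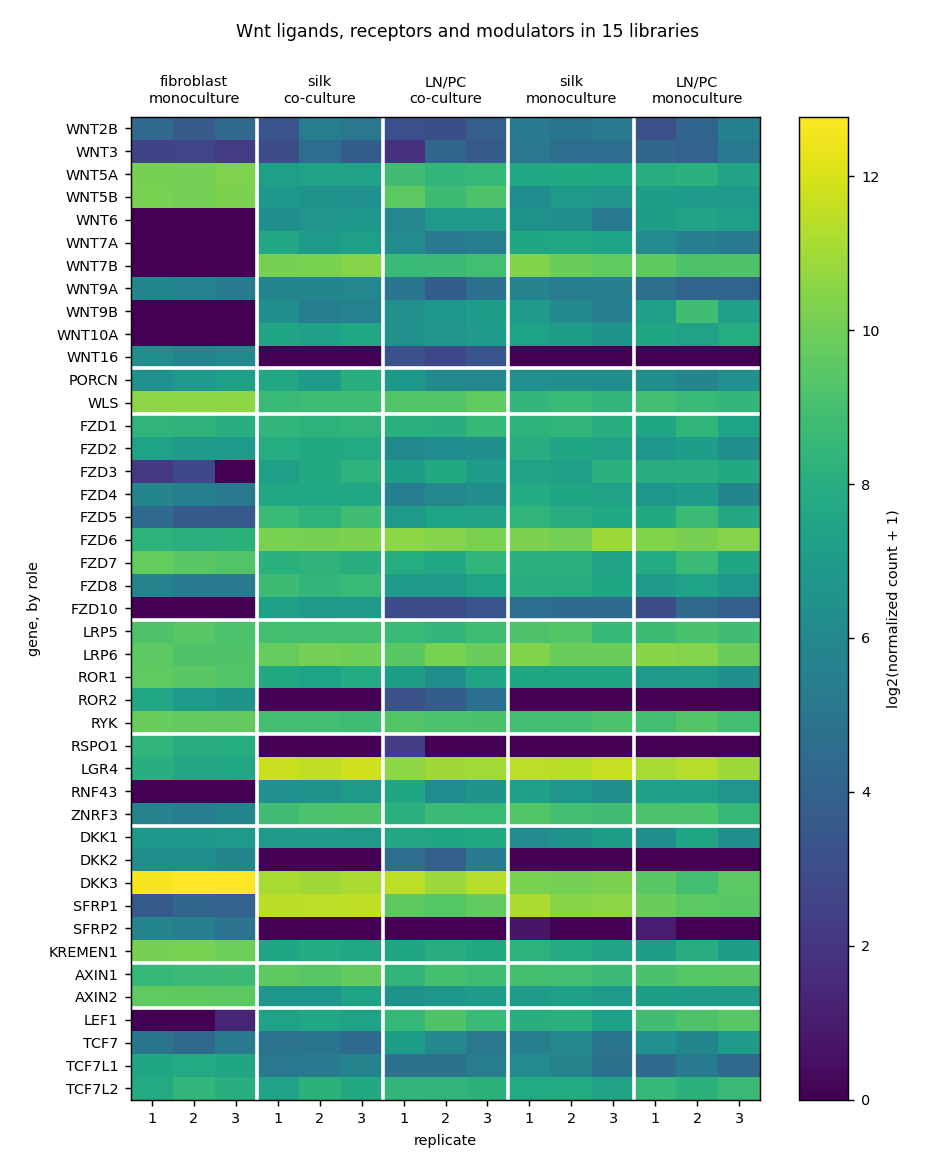
Level of the 43 genes (rows, by role) in the 15 libraries (columns, by group and replicate), as log2(normalized count + 1). WNT6, WNT7A, WNT7B, WNT9B, WNT10A, FZD10 and RNF43 were at 0 in all fibroblast libraries, and WNT16, ROR2, RSPO1 and DKK2 were at 0 in all 6 epithelial monocultures.

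The comparison of fibroblasts with the 6 epithelial monocultures shows which of these cultures carried each gene. Fibroblasts came from the floor of the wells and the epithelium from membranes, so cell type and growth surface cannot be told apart. By limma with Benjamini-Hochberg adjustment over all tested genes, with genes called where the adjusted p was under 0.05, 36 of the 43 genes differed, 16 higher and 20 lower in fibroblasts, against 58.3% of all 14502 genes tested (28% higher and 30.3% lower). The filter on low values, 10 normalized counts in 3 libraries, was passed through fibroblasts alone by 5 genes (WNT16, DKK2, ROR2, RSPO1 and SFRP2). It was passed through epithelial monocultures alone by 10 (WNT3, WNT6, WNT7A, WNT7B, WNT9B, WNT10A, FZD3, FZD10, RNF43 and LEF1). All of these had to differ, and their calls add nothing to their values. Without fibroblast monoculture 1, 2 or 3, where the first 5 were not tested, 30, 29 or 30 genes were called, 11, 10 or 10 of them higher and 19, 19 or 20 lower. The 2 cell types carried different ligands: fibroblasts had more WNT5A and WNT5B and were the monocultures with WNT16, and the epithelium had WNT7A, WNT7B, WNT10A, WNT6 and WNT9B, which were at 0 in the fibroblasts. RSPO1 was present in fibroblasts and at 0 in epithelial monocultures, whereas LGR4, the only measured R-spondin receptor, was higher in the epithelium. The median log2 change over the 43 genes was -0.05, also with genes at 0 set to their bound, against -0.02 over all genes. Without fibroblast monoculture 1, 2 or 3, where fewer genes were tested, the median over the genes was -0.80, -0.60 or -0.72. Log2 changes are given with their SE on the scale of log2(normalized count + 1), which understates the change of low genes.

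WNT5A, which signals mainly without beta-catenin, had 1148, 1091 and 1244 normalized counts in fibroblast monocultures, against 196, 217 and 196 in silk monocultures and 249, 282 and 174 in those on LN/PC. WNT5B, its close relative, had 1169.9, 1096 and 1225 in fibroblasts, against 72.8, 125 and 101 in silk monocultures and 139, 127 and 119.5 in those on LN/PC. Every fibroblast library lay above every epithelial monoculture for both genes, by 2.42 ± 0.16, adjusted p = 1.04e-07 for WNT5A and 3.37 ± 0.18, adjusted p = 1.41e-08 for WNT5B. WNT16 had 79.3, 52.6 and 67.7 in fibroblasts and 0 in the 6 epithelial monocultures, which makes it at least 23.8-fold higher than in silk and at least 22.5-fold higher than in LN/PC monocultures, with the floor set at 3 reads per library. WNT9A averaged 47.8 ± 10.4 in fibroblasts (SD, n = 3), 45.7 ± 5.45 in silk monocultures and 19.4 ± 5.18 in those on LN/PC. Its fibroblast libraries overlapped those of silk monocultures, and its call (0.66 ± 0.26, adjusted p = 0.0494) ended at log2 0.69, 0.61 or 0.67 without silk monoculture 1, 2 or 3, at 0.51, 0.62 or 0.83 without fibroblast monoculture 1, 2 or 3, and at 0.61 without LN/PC monoculture 2 or 3. It also ended with the deposited log2 values tested as they stand (0.26), without the filter on low values (adjusted p = 0.0539) and under upper quartile scaling (0.50).

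WNT7B, a ligand known from epithelia of kidney and lung, was the highest Wnt ligand per length in the epithelium, at 464 ± 117 normalized counts per kilobase in silk monocultures and 299 ± 48.4 in those on LN/PC (SD, n = 3; length is the median of the GENCODE v29 protein-coding transcripts). In LN/PC monocultures it overlapped WNT9B, which had 184 per kilobase with a range of 106 to 333. In fibroblasts WNT5B was highest, at 892 ± 49.6 per kilobase, with WNT5A next at 316 ± 21.1 and no overlap between them. Their normalized counts there overlapped, with means of 1163.5 for WNT5B and 1160.9 for WNT5A. The gap per kilobase thus rests on the median lengths, 1304 bases for WNT5B and 3670.5 for WNT5A. WNT7B had 0 in the 3 fibroblast libraries, against 1300.1, 969 and 794 normalized counts in silk monocultures and 779, 579.9 and 614 in those on LN/PC. It was at least 330-fold lower in fibroblasts than in silk monocultures and at least 213-fold lower than in LN/PC monocultures. WNT7A, its paralog, had 0 in fibroblasts, against 185, 192 and 168 in silk monocultures and 70.3, 47.05 and 36.1 in those on LN/PC. WNT10A had 0 in fibroblasts, against 170.1, 139 and 95.4 in silk monocultures and 181, 164 and 235 in those on LN/PC. These 2 ligands were at least 58.7-fold and 43.6-fold lower in fibroblasts than in silk monocultures. Against LN/PC monocultures they were at least 16.6-fold and 62.6-fold lower. WNT6 had 0 in fibroblasts, against 94.5, 82.4 and 37.8 in silk monocultures and 136, 176 and 149 in those on LN/PC. WNT6 was at least 23.2-fold lower than in silk and at least 49.8-fold lower than in LN/PC monocultures. WNT9B, which drives nephron formation in the mouse, had 0 in fibroblasts, against 127, 66.7 and 43.9 in silk monocultures and 146, 459 and 156 in those on LN/PC, where replicate 2 stood apart at the top, and was at least 25.7-fold lower than in silk monocultures. WNT3 was low in both cell types, at 3.62 to 5.30 in fibroblasts against 15.3 to 34.2 over the 6 epithelial monocultures (-2.17 ± 0.31). It passed the filter through the epithelium alone, so it had to differ.

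**Figure D2:**
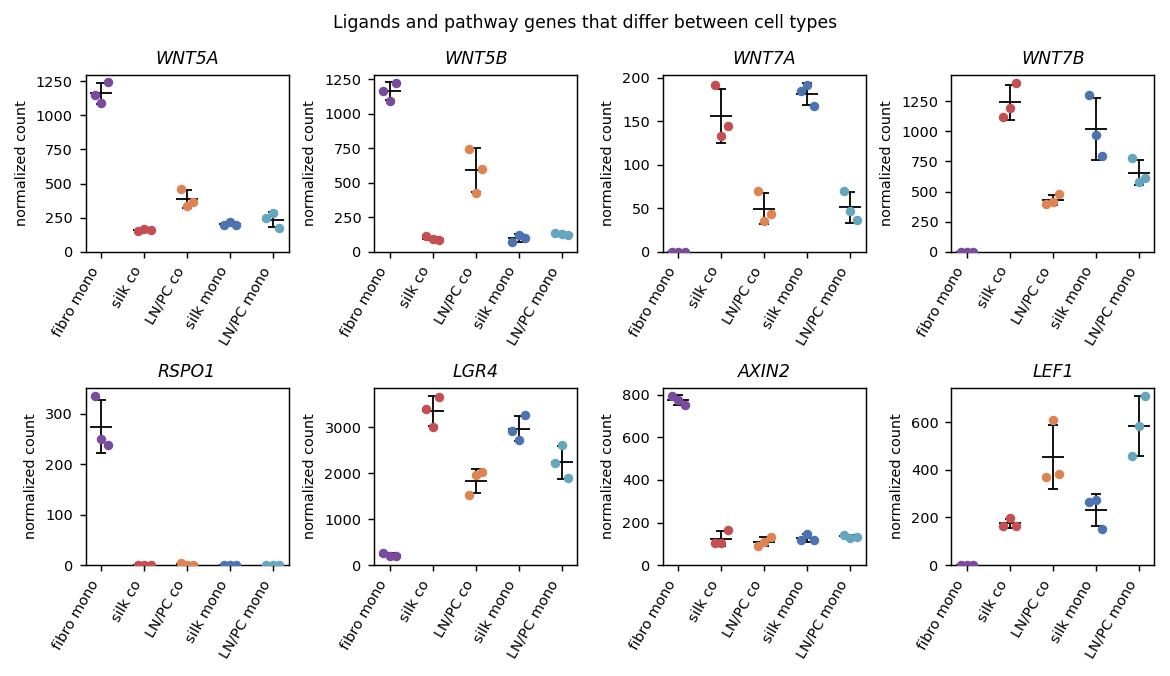
Normalized counts of 8 genes in each library (points), with group means and SD (bars, n = 3), for fibroblast monocultures, silk and LN/PC co-cultures, and silk and LN/PC monocultures. WNT5A, WNT5B, RSPO1 and AXIN2 were highest in fibroblasts, and WNT7A, WNT7B, LGR4 and LEF1 were highest in epithelial cultures.

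For ligand export, WLS, the carrier of lipid-modified Wnt proteins, had 1510.3, 1551 and 1566 normalized counts in fibroblasts, against 344, 386 and 334 in silk monocultures and 469.7, 402 and 355 in those on LN/PC. The groups did not overlap (2.02 ± 0.12, adjusted p = 4.62e-08). PORCN, the enzyme that adds the lipid, averaged 117 ± 29.1 in fibroblasts, 80.4 ± 5.16 in silk monocultures and 74.1 ± 17.01 in those on LN/PC (SD, n = 3) and did not pass the test (0.58 ± 0.23, adjusted p = 0.0515).

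Of 9 Frizzled receptors, 6 were lower in fibroblasts and only FZD7 was higher, against 30.3% and 28% of all genes tested. FZD3 and FZD10, among those lower, passed the filter through the epithelium alone and had to differ. FZD7 had 867, 733 and 632 normalized counts in fibroblasts, against 283, 272 and 175 in silk monocultures and 231, 416 and 182 in those on LN/PC (1.57 ± 0.25, adjusted p = 0.000251), with no overlap between the cell types. FZD6, the highest Frizzled gene per length in all 4 epithelial groups, had 306, 276 and 290.2 in fibroblasts, against 1238, 1079 and 1903 in silk monocultures and 1296, 1121 and 1374 in those on LN/PC (-2.17 ± 0.17, adjusted p = 4.77e-07). FZD3, a receptor of the planar polarity branch, had 3.32, 5.99 and 0 in fibroblasts (-6.12 ± 0.51). It had 164, 156 and 284 in silk monocultures and 246, 262 and 213 in those on LN/PC. FZD5 had 21.4, 11.98 and 11.3 in fibroblasts, against 327, 245 and 191 in silk monocultures and 213, 418 and 211 in those on LN/PC (-4.08 ± 0.30, adjusted p = 3.25e-07). All fibroblast values of FZD3, FZD5 and FZD6 lay below all epithelial values. FZD8 had 52.1, 39.3 and 35.6 in fibroblasts, against 105 to 258 over the 6 epithelial monocultures (-2.01 ± 0.22, adjusted p = 1.19e-05). FZD4 had 55.2, 44.6 and 34.3 in fibroblasts, against 55.6 to 233 over the same libraries (-1.59 ± 0.29, adjusted p = 0.00059), and neither gene overlapped between the cell types. FZD10 had 0 in fibroblasts, against 19.4 to 24.4 in silk monocultures and 7.06 to 20.6 in those on LN/PC. FZD1 and FZD2 did not pass the test.

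Among co-receptors, ROR1, ROR2 and RYK, which bind WNT5A, were higher in fibroblasts, and LRP6 was lower. ROR2 passed the filter through fibroblasts alone, so it had to differ. ROR1 had 799, 721 and 638 normalized counts in fibroblasts, against 179, 183 and 186 in silk monocultures and 113, 119.9 and 82.2 in those on LN/PC (2.37 ± 0.16, adjusted p = 1.39e-07). ROR2 had 196, 129.7 and 96.7 in fibroblasts and 0 in the 6 epithelial monocultures, and was at least 50.4-fold higher than in silk and at least 47.6-fold higher than in LN/PC monocultures. RYK, a receptor with an inactive kinase domain, had 885, 833 and 832 in fibroblasts, against 485, 477 and 562 in silk monocultures and 479.9, 644 and 474 in those on LN/PC (0.72 ± 0.13, adjusted p = 0.000609). Fibroblast values of the 3 genes lay above all epithelial monoculture values. LRP6 had 758, 617 and 599 in fibroblasts, against 1311, 932 and 962 in silk monocultures and 1428, 1351 and 907 in those on LN/PC (-0.78 ± 0.17, adjusted p = 0.00229). LRP5 averaged 624 ± 72.7, 539 ± 144 and 474 ± 59.9 in the same 3 groups (SD, n = 3) and did not pass the test.

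The R-spondin axis was split between the cell types. RSPO1, a secreted Wnt enhancer, had 335, 249 and 238 normalized counts in fibroblasts and 0 in the 6 epithelial monocultures, and was at least 98.1-fold higher than in silk and at least 92.7-fold higher than in LN/PC monocultures. LGR4, a receptor of R-spondins, had 259, 206 and 201 in fibroblasts, against 2919.7, 2729 and 3259 in silk monocultures and 2218, 2603 and 1893 in those on LN/PC (-3.53 ± 0.14, adjusted p = 1.09e-09). ZNRF3, which removes Frizzled receptors from the surface, had 52.1, 44.9 and 54.9 in fibroblasts, against 662, 500.2 and 458 in silk monocultures and 564, 571 and 362 in those on LN/PC (-3.31 ± 0.19, adjusted p = 3.79e-08). RNF43, which acts like ZNRF3, had 0 in fibroblasts, against 157, 106 and 77.2 in silk monocultures and 159, 153 and 99.1 in those on LN/PC, at least 36.7-fold lower than in silk monocultures. No fibroblast value of LGR4, ZNRF3 or RNF43 reached the epithelial values.

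Of the 6 secreted antagonists and their receptors, 4 were higher in fibroblasts, against 28% of all genes tested. DKK2 and SFRP2, among the 4, passed the filter through fibroblasts alone and had to differ. DKK3, a divergent member of the DKK family, had 6255, 6979 and 6766 normalized counts in fibroblasts, against 1185, 1111 and 1234 in silk monocultures and 726, 501 and 758 in those on LN/PC (2.93 ± 0.14, adjusted p = 6.65e-09). KREMEN1, a receptor for DKK proteins, had 1127, 1184 and 993 in fibroblasts, against 309, 229.5 and 174 in silk monocultures and 142, 249.8 and 141 in those on LN/PC (2.46 ± 0.22, adjusted p = 1.89e-06). DKK2 had 77.1, 78.3 and 56.8 in fibroblasts and 0 in the 6 epithelial monocultures, which makes it at least 25.3-fold higher than in silk and at least 23.9-fold higher than in LN/PC monocultures. SFRP2, a Wnt-binding protein, had 55.7, 46.9 and 27.9 in fibroblasts and about 1 read over each epithelial monoculture group. Its ratio to silk monocultures was 189 with a 95% exact interval of 24.4 to 5503, and that to LN/PC monocultures was 128 (23.0 to 5198). SFRP1 ran the other way, with 11.1, 17.7 and 15.2 in fibroblasts, against 2371, 1452 and 1504 in silk monocultures and 949, 743 and 695 in those on LN/PC (-6.24 ± 0.21, adjusted p = 3.13e-10). For all 5 genes the cell types did not overlap, and DKK1 did not pass the test (0.15 ± 0.30, adjusted p = 0.685).

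AXIN2, a scaffold of the beta-catenin destruction complex and a target gene of the pathway, had 796, 776 and 750.2 normalized counts in fibroblasts, against 116, 148 and 119 in silk monocultures and 141, 129 and 134 in those on LN/PC (2.56 ± 0.14, adjusted p = 2.1e-08). The transcription factor TCF7L1 had 183, 219 and 182 in fibroblasts, against 69.3, 51.4 and 26.8 in silk monocultures and 21.1, 37.6 and 19.5 in those on LN/PC (2.48 ± 0.32, adjusted p = 4.21e-05). LEF1, a partner of beta-catenin on DNA, had 0, 0 and 1.48 in fibroblasts, against 265, 274 and 153 in silk monocultures and 458, 585 and 708 in those on LN/PC. The fibroblast values of AXIN2 and TCF7L1 lay above, and those of LEF1 below, all epithelial monoculture values. LEF1 in fibroblasts rested on about 2 reads, and the ratio of LN/PC monocultures to fibroblasts was 1182 (95% exact interval 241 to 7210). The ratio of silk monocultures to fibroblasts was 467 (95.7 to 2868). AXIN1, the constitutive scaffold, averaged 406 ± 41.9 in fibroblasts, 467 ± 45.9 in silk monocultures and 637 ± 83.6 in those on LN/PC, and TCF7 averaged 30.1 ± 9.32, 43.7 ± 14.4 and 90.2 ± 34.5 in the same groups (SD, n = 3). The cell types overlapped for both genes. The call of AXIN1 (-0.42) ended without fibroblast monoculture 1 (-0.34), and that of TCF7 (-1.02) without fibroblast monoculture 2 (-0.78).

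Genes of the pathway outside these families also differed between the cell types, where 58.3% of all genes tested were called (28% higher and 30.3% lower in fibroblasts). Of 24 cytoplasmic and nuclear core genes fibroblasts had 11 higher and 7 lower (median log2 0.32), of 11 planar polarity and co-receptor genes 5 were higher and 6 lower (median -0.70), of 6 other extracellular antagonists 4 were higher and 2 lower (median 5.60), and of 16 other beta-catenin target genes 11 were higher and 4 lower (median 1.78). TLE4, a corepressor, was higher by 2.69 ± 0.32, adjusted p = 2.08e-05. APCDD1, an antagonist that binds Wnt proteins, had 1579, 1684 and 1635 normalized counts in fibroblasts and 0 in the 6 epithelial monocultures, whereas SOSTDC1, which binds LRP6, had 0 in fibroblasts, against 308, 215 and 314 in silk monocultures and 137, 213 and 97.5 in those on LN/PC. The matricellular gene CCN4, a Wnt target, had 1737, 1604 and 1646 in fibroblasts and about 2 reads over each epithelial monoculture group. CELSR1, a planar polarity cadherin, had 0, 4.45 and 2.66 in fibroblasts, against 2150.4, 2225 and 1948 in silk monocultures and 2644, 2088 and 2104 in those on LN/PC. APCDD1 and CCN4 passed the filter through fibroblasts alone, and SOSTDC1 and CELSR1 through epithelial monocultures alone. These genes had to differ, and their calls add nothing to their values.

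The membrane was compared without fibroblasts in the epithelial monocultures. Of the 39 genes that passed the filter on low values (ROR2, RSPO1, SFRP2 and WNT16 did not), 12 differed, 8 higher and 4 lower on silk, against 11.7% of all 14433 genes tested (5.88% higher and 5.79% lower). WNT7A, SFRP1 and DKK3 were higher on silk and LEF1 was lower, and these 4 were called under every alternative. The median log2 change was 0.12 over the 39 genes and 0.03 over all genes. The silk monocultures serve as one side here and in the co-culture comparison on silk, and the LN/PC monocultures in that on LN/PC, so the comparisons share samples.

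WNT7A had 185, 192 and 168 normalized counts in silk monocultures, against 70.3, 47.05 and 36.1 in LN/PC monocultures. SFRP1, which binds Wnt proteins outside the cell, had 2371, 1452 and 1504 in silk monocultures, against 949, 743 and 695 in LN/PC monocultures. DKK3 had 1185, 1111 and 1234 in silk monocultures, against 726, 501 and 758 in LN/PC monocultures. For the 3 genes every silk library lay above every LN/PC library, by 1.86 ± 0.30, adjusted p = 0.00116 for WNT7A, 1.13 ± 0.18, adjusted p = 0.00121 for SFRP1 and 0.85 ± 0.18, adjusted p = 0.00861 for DKK3. LEF1 had 265, 274 and 153 in silk monocultures, against 458, 585 and 708 in LN/PC monocultures, and all silk values lay below all LN/PC values (-1.36 ± 0.25, adjusted p = 0.003).

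Each of the other 8 calls ended when certain single libraries were left out. The receptors FZD2, FZD4 and FZD8 were higher on silk by 0.89, 1.06 and 0.81. FZD2 had 249.7, 178 and 161 normalized counts in silk monocultures, against 102, 143 and 77.02 in LN/PC monocultures. FZD4 had 233, 190.1 and 166 in silk monocultures, against 106, 134 and 55.6 in LN/PC monocultures. FZD8 had 258, 246 and 185 in silk monocultures, against 123, 167 and 105 in LN/PC monocultures. LN/PC monoculture 2 was the highest LN/PC value of all 3 receptors, and the groups did not overlap. The ligands WNT7B (0.62) and WNT9A (1.22) were higher and WNT6 (-1.19) and WNT9B (-1.59) lower on silk, with the values given above and no overlap between the groups. TCF7L2, a partner of beta-catenin, had 224, 227 and 173 in silk monocultures, against 366, 293 and 413 in LN/PC monocultures (-0.78 ± 0.21, adjusted p = 0.0286). Without silk monoculture 1, calls ended for WNT9A (1.15), TCF7L2 (-0.83), FZD4 (0.93), FZD8 (0.72), FZD2 (0.70) and WNT7B (0.43), and 6 genes were called. Without silk monoculture 2 they ended for WNT9A (1.31), WNT9B (-1.54), FZD4 (1.08), FZD8 (0.75), FZD2 (0.94) and WNT7B (0.64), also leaving 6. Without silk monoculture 3 they ended for WNT6 (-0.79), WNT9A (1.20), TCF7L2 (-0.65) and WNT9B (-1.24), leaving 8. Without LN/PC monoculture 1 they ended for WNT6 (-1.27), TCF7L2 (-0.75), FZD4 (1.16), FZD8 (0.77) and FZD2 (0.87), leaving 7. Without LN/PC monoculture 2 they ended for WNT9A (1.12), WNT9B (-1.06) and WNT7B (0.53), while 13 genes were called. Without LN/PC monoculture 3 they ended for WNT6 (-1.20), WNT9A (1.12), TCF7L2 (-0.66), FZD4 (0.70), FZD8 (0.66), FZD2 (0.67) and WNT7B (0.57), leaving 5. A fit of these 6 libraries alone also called 5 genes, and there WNT6, WNT9A, TCF7L2, FZD4, FZD8, FZD2 and WNT7B had adjusted p of 0.0535 to 0.108.

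Outside these families, 4 of 11 planar polarity and co-receptor genes were called between the monocultures, against 11.7% of all genes tested (5.88% higher and 5.79% lower on silk). GPC3, a glypican that binds Wnt and Frizzled proteins, had 119, 126 and 92.2 normalized counts in silk monocultures, against 486, 426 and 666 in LN/PC monocultures (-2.20 ± 0.22, adjusted p = 2.62e-05). GPC6 had 467, 265 and 271 in silk monocultures, against 117, 141 and 94.7 in LN/PC monocultures (1.47 ± 0.24, adjusted p = 0.00126). Of the 24 core genes 4 were lower on silk, of the 11 genes 2 were higher and 2 lower, of 6 other antagonists 3 were higher, and of 16 other target genes 2 were higher and 1 lower, with median log2 changes of -0.04, -0.02, 1.12 and 0.03. The target gene EPHB2, a guidance receptor, was lower (-1.22 ± 0.19, adjusted p = 0.00115) and TNFRSF19, a receptor of the tumor necrosis factor family, was higher (1.18 ± 0.21, adjusted p = 0.00264) on silk. Of 18 fibroblast markers, 2 were higher and 1 lower on silk, with summed markers as given above.

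Between the co-cultures, 21 of the 39 genes differed, 15 higher and 6 lower on silk, against 36.1% of all 14433 genes tested (18.5% higher and 17.6% lower). FZD10, SFRP1, FZD4, WNT7A, FZD2 and WNT7B were among those higher on silk, and DKK2, WNT5B, LEF1, WNT5A and WLS were among those lower. The median log2 change was 0.32 over the 39 genes, also with DKK2 set to its bound, and 0.03 over all genes. All 18 fibroblast markers were lower in silk than in LN/PC co-cultures, and their part in the result was not tested.

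**Figure D3:**
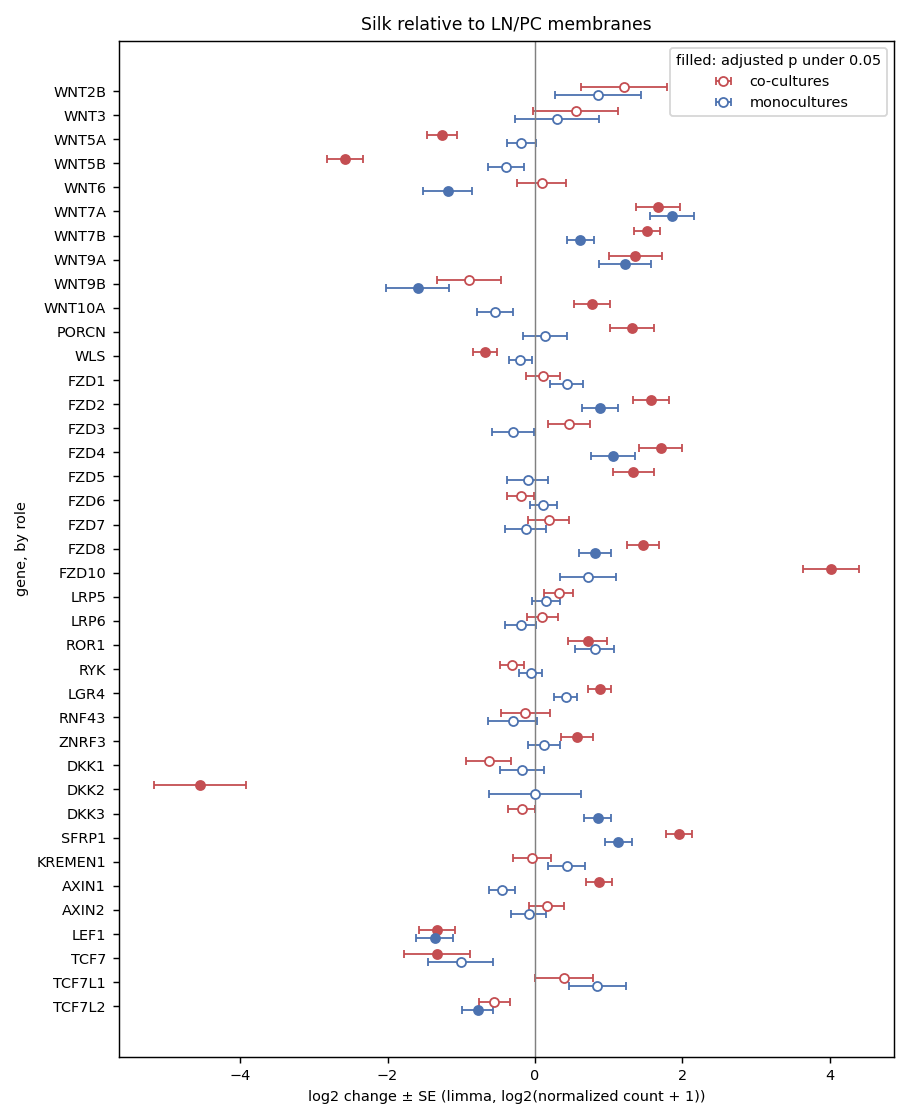
Log2 change ± SE of 39 genes in silk relative to LN/PC cultures (x axis, limma), for co-cultures and monocultures, with filled points at an adjusted p under 0.05. FZD10 (4.02), DKK2 (-4.55, fitted against libraries at 0) and WNT5B (-2.58) lay furthest from 0 in co-cultures, while WNT7A, WNT7B, WNT9A, SFRP1, FZD2, FZD4, FZD8 and LEF1 were called with the same sign with and without fibroblasts.

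Among ligands, WNT7B had 1123, 1196 and 1402 normalized counts in silk co-cultures, against 399, 414 and 479.8 in LN/PC co-cultures (1.52 ± 0.18, adjusted p = 1.16e-05). WNT7A had 192, 133 and 144 in silk co-cultures, against 69.8, 35.9 and 43.5 in LN/PC co-cultures (1.67 ± 0.30, adjusted p = 0.000494). WNT9A was low on both membranes, with 55.7, 58.02 and 61.9 in silk co-cultures, against 31.2, 12.7 and 26.98 in LN/PC co-cultures (1.36 ± 0.36, adjusted p = 0.00789). All silk values of the 3 genes lay above all LN/PC values, and WNT7A and WNT7B were at 0 in every fibroblast library. WNT5A had 152, 164 and 162 in silk co-cultures, against 457, 335 and 366 in LN/PC co-cultures (-1.26 ± 0.20, adjusted p = 0.000175). WNT5B had 112, 90.6 and 86.1 in silk co-cultures, against 744, 429.5 and 603 in LN/PC co-cultures (-2.58 ± 0.24, adjusted p = 1.08e-06). Both ligands of fibroblasts were lower on silk, with no overlap. WLS had 395, 453 and 438 in silk co-cultures, against 629, 635 and 801 in LN/PC co-cultures (-0.68 ± 0.16, adjusted p = 0.00415), and PORCN had 195, 133 and 267 in silk co-cultures, against 109, 64.99 and 61.6 in LN/PC co-cultures (1.32 ± 0.30, adjusted p = 0.0032). The 2 export genes thus differed in opposite directions, each without overlap. WNT10A averaged 177 ± 19.2 in silk co-cultures and 104 ± 20.3 in those on LN/PC (SD, n = 3), and its call (0.77 ± 0.25, adjusted p = 0.0228) ended without silk co-culture 1 (0.74) or 3 (0.71) or LN/PC co-culture 1 (0.64) or 2 (0.75).

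Of 9 Frizzled receptors, 5 were called, each higher on silk, against 18.5% of all genes tested called higher. FZD10 had 157, 120.0 and 134 normalized counts in silk co-cultures, against 7.19, 6.45 and 8.98 in LN/PC co-cultures (4.02 ± 0.38, adjusted p = 1.15e-06). FZD4 had 193, 191 and 202 in silk co-cultures, against 45.1, 58.5 and 78.8 in LN/PC co-cultures (1.70 ± 0.30, adjusted p = 0.000426). FZD2 had 241, 214 and 226 in silk co-cultures, against 68.7, 74.3 and 83.8 in LN/PC co-cultures (1.58 ± 0.25, adjusted p = 0.000154). For each of them the lowest silk library was above the highest LN/PC library. FZD8 had 425, 339 and 404 in silk co-cultures, against 128, 129 and 167 in LN/PC co-cultures (1.46 ± 0.22, adjusted p = 9.65e-05). FZD5 had 389, 303 and 462 in silk co-cultures, against 115, 167 and 175 in LN/PC co-cultures (1.34 ± 0.28, adjusted p = 0.00173), and these groups did not overlap either. LGR4 had 3388, 3009 and 3660.3 in silk co-cultures, against 1525, 1954 and 2017 in LN/PC co-cultures (0.88 ± 0.16, adjusted p = 0.000622), without overlap. ZNRF3 averaged 542 ± 73.8 in silk co-cultures and 368 ± 73.4 in those on LN/PC, and ROR1 averaged 203 ± 32.5 and 129 ± 48.1 in the same order (SD, n = 3), with overlap for ROR1. The call of ZNRF3 (0.57 ± 0.21, adjusted p = 0.0473) ended without silk co-culture 2 (0.53) or 3 (0.49) or LN/PC co-culture 1 (0.39) or 3 (0.64), and under upper quartile scaling (0.55). The call of ROR1 (0.71 ± 0.27, adjusted p = 0.0474) ended without silk co-culture 1 (0.67), 2 (0.85) or 3 (0.62) or LN/PC co-culture 1 (0.80) or 2 (0.39), under upper quartile scaling (0.70) and without the filter on low values (adjusted p = 0.0521).

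Among antagonists, feedback genes and transcription factors, SFRP1 had 2828, 2909 and 3021 normalized counts in silk co-cultures, against 773, 672 and 818 in LN/PC co-cultures (1.96 ± 0.18, adjusted p = 9.23e-07), without overlap. DKK2 had 0 in the 3 silk co-cultures, against 22.4, 13.6 and 36.6 in LN/PC co-cultures, and was at least 8.45-fold lower on silk. It passed the filter only through the LN/PC co-cultures, so it had to differ, and was not tested when any of those libraries was left out. AXIN1 had 772, 708 and 844 in silk co-cultures, against 327, 516 and 447 in LN/PC co-cultures (0.87 ± 0.18, adjusted p = 0.00144), without overlap. LEF1 had 162, 199 and 165 in silk co-cultures, against 368, 607 and 382 in LN/PC co-cultures (-1.33 ± 0.25, adjusted p = 0.000744), also without overlap. DKK3, which differed between monocultures, averaged 2144 ± 137 in silk co-cultures and 2467 ± 566 in those on LN/PC (SD, n = 3) and did not pass the test (-0.18 ± 0.18, adjusted p = 0.474). TCF7 averaged 26.4 ± 4.40 in silk co-cultures and 79.4 ± 55.3 in those on LN/PC (SD, n = 3), where replicate 1 was highest. Its call (-1.33 ± 0.44, adjusted p = 0.0287) ended without silk co-culture 1 (-1.37), 2 (-1.42) or 3 (-1.19) or LN/PC co-culture 1 (-0.80) or 2 (-1.36). AXIN2 averaged 125 ± 35.7 in silk co-cultures and 110.0 ± 20.3 in those on LN/PC and did not pass the test (0.16 ± 0.24, adjusted p = 0.626).

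Outside the families, GPC3 had 194, 242 and 178 normalized counts in silk co-cultures, against 528, 881 and 704 in LN/PC co-cultures (-1.76 ± 0.22, adjusted p = 2.09e-05). TLE1 had 687, 769 and 824 in silk co-cultures, against 249, 266 and 307 in LN/PC co-cultures (1.47 ± 0.18, adjusted p = 1.68e-05). Beta-catenin itself, CTNNB1, had 3495, 3504 and 3470.1 in silk co-cultures, against 8732, 10032 and 5556 in LN/PC co-cultures (-1.17 ± 0.27, adjusted p = 0.00385). The values were lower on silk in every library for GPC3 and CTNNB1 and higher for TLE1. Of 24 core genes 6 were higher and 5 lower on silk, of 11 planar polarity and co-receptor genes 4 were higher and 3 lower, of 6 other antagonists 1 was higher and 4 lower, and of 16 other target genes 3 were higher and 7 lower, with median log2 changes of 0.12, 0.21, -3.26 and 0.14. Of all genes tested 18.5% were higher and 17.6% lower. APCDD1, among these antagonists, and CCN4 and TWIST1, among the target genes, passed the filter through the LN/PC co-cultures alone, so they had to differ.

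The promoters of 3 genes are shown because WNT7A and LEF1 were called with opposite signs between the membranes in both monocultures and co-cultures, and because DKK1 alone held the letters bound by TCF and LEF factors. Each is the 250 bases upstream of a gene's start in RefSeq (GRCh38.p14), 5′ to 3′ on the gene's strand, with CTTTGAT or CTTTGAA on either strand in capitals.
WNT7A (chr3:13880072-13880321, minus strand): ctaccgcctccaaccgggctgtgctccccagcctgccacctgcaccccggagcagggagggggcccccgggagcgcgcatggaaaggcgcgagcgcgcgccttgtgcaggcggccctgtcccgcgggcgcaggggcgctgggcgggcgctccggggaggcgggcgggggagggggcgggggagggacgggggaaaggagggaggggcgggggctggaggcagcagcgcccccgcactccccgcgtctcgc
LEF1 (chr4:108166302-108166551, minus strand): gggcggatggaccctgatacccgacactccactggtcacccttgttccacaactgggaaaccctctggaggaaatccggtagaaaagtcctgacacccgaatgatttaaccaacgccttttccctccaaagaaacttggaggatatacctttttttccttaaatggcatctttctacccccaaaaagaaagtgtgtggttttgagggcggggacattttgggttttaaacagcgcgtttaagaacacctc
DKK1 (chr10:52314031-52314280, plus strand): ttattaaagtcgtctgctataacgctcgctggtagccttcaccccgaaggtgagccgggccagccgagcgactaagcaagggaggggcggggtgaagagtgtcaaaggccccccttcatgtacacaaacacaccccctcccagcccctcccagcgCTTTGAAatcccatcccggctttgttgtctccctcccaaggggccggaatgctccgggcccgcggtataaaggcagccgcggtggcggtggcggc
The DKK1 match, CTTTGAA, lay 95 to 89 bases upstream of the start. Windows were matched for 30 of the 43 genes, and DKK1 was the 1 gene among them with a match, while 5.94% of all 35116 windows of the same length held 1 or both of the motifs. Matches are a description of letters and not of binding. DKK1, an antagonist that binds LRP6, was called in no comparison: it had 109, 111 and 121 normalized counts in fibroblasts, 134, 129 and 124 in silk co-cultures, 207, 178 and 216 in co-cultures on LN/PC, 70.2, 91.8 and 137 in silk monocultures and 82.2, 186 and 83.6 in those on LN/PC. Its LN/PC co-culture values overlapped those of LN/PC monocultures through replicate 2 of each (0.87 ± 0.30, adjusted p = 0.0713).

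On silk, added fibroblasts went with 5 higher and no lower genes among the 39, against 3.78% of all genes tested (2.91% higher and 0.866% lower). The 5 genes were FZD10, PORCN, DKK3, SFRP1 and AXIN1. Of the calls over all genes 77.1% were higher, or 66.2% under upper quartile scaling. No gene was lower at an unadjusted p under 0.05 (0 of 39) by limma, nor was one called lower with the deposited log2 values tested as they stand. The median log2 change was 0.08 over the 39 genes and 0.00 over all genes.

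FZD10, a Frizzled receptor, had 157, 120.0 and 134 normalized counts in silk co-cultures, against 24.4, 21.2 and 19.4 in silk monocultures. The lowest co-culture library was well above the highest monoculture library (2.61 ± 0.38, adjusted p = 0.000693). FZD10 was at 0 in all 3 fibroblast libraries, and it was the 1 gene called under every alternative.

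DKK3 had 2164, 1998 and 2269 normalized counts in silk co-cultures, against 1185, 1111 and 1234 in silk monocultures (0.86 ± 0.18, adjusted p = 0.012). The excess over silk monocultures was 17.98%, 14.97% and 19.9% of the difference between fibroblasts and those monocultures, beside a median of 0.0281% over the 18 fibroblast markers. SFRP1 had 2828, 2909 and 3021 in silk co-cultures, against 2371, 1452 and 1504 in silk monocultures (0.75 ± 0.18, adjusted p = 0.0259). AXIN1 had 772, 708 and 844 in silk co-cultures, against 509, 474 and 418 in silk monocultures (0.73 ± 0.18, adjusted p = 0.0268). PORCN had 195, 133 and 267 in silk co-cultures, against 86.3, 77.4 and 77.4 in silk monocultures (1.24 ± 0.30, adjusted p = 0.0261). Each of the 4 genes was higher in every co-culture library than in any monoculture library. Without silk co-culture 1, calls ended for DKK3 (0.86), PORCN (1.22), AXIN1 (0.73) and SFRP1 (0.78), without silk co-culture 2 for AXIN1 (0.79) and SFRP1 (0.76), and without silk co-culture 3 for DKK3 (0.82), PORCN (1.00), AXIN1 (0.67) and SFRP1 (0.73). Without silk monoculture 2 they ended for DKK3 (0.82), PORCN (1.21), AXIN1 (0.74) and SFRP1 (0.63), and without silk monoculture 3 for PORCN (1.21), AXIN1 (0.65) and SFRP1 (0.65). The number called was then 1, 3, 1, 1 and 2.

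Of 18 fibroblast markers, 3 were higher in silk co-cultures than in silk monocultures. Outside the families, TLE1, a corepressor, had 687, 769 and 824 normalized counts in silk co-cultures, against 467, 405 and 280.2 in silk monocultures (1.01 ± 0.18, adjusted p = 0.00405), without overlap. It was the 1 gene called among 24 core genes (median log2 0.09). Of 11 planar polarity and co-receptor genes 1 was called, and of 16 other target genes 1, each higher, with medians of -0.16 and 0.15. Of all genes tested 2.91% were higher and 0.866% lower.

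**Figure D4:**
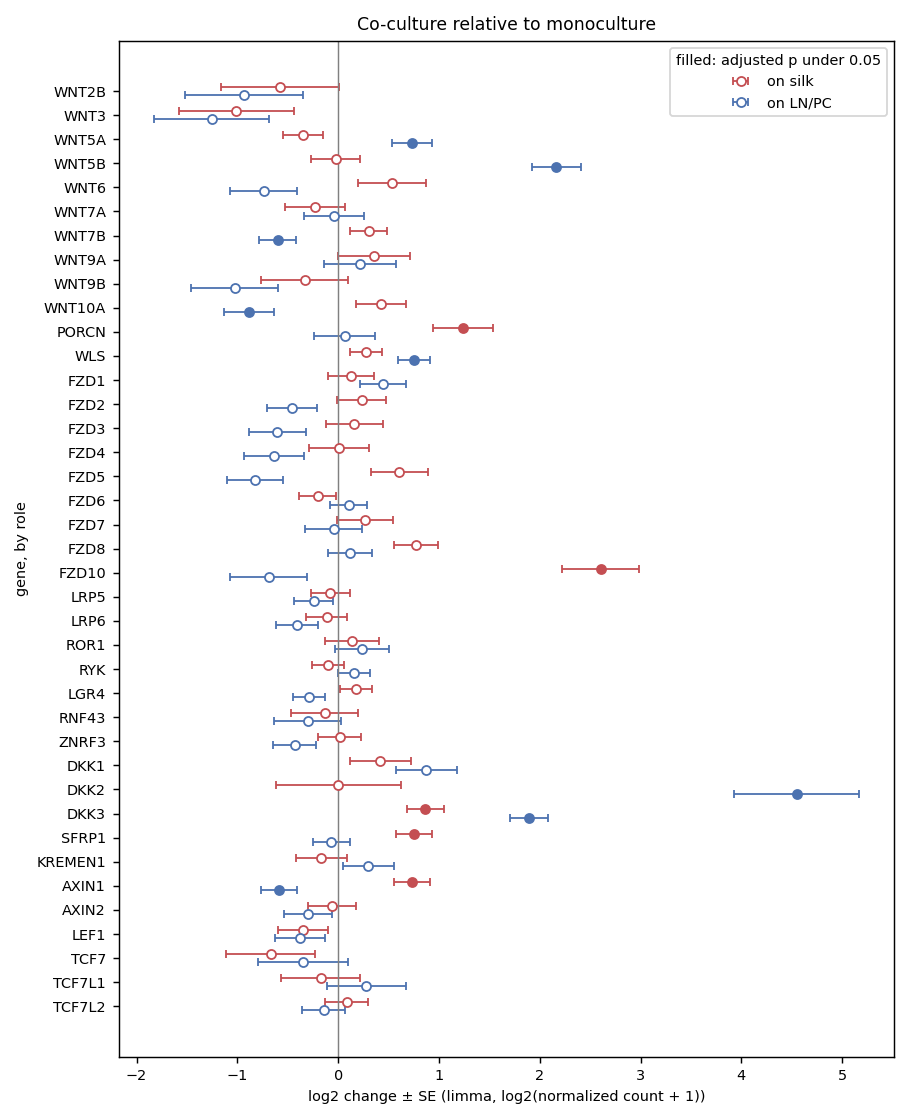
Log2 change ± SE of 39 genes in co-cultures relative to monocultures (x axis, limma), on silk and on LN/PC, with filled points at an adjusted p under 0.05. FZD10 (2.61) lay furthest to the right on silk, and DKK2 (4.55, fitted against libraries at 0), WNT5B (2.16) and DKK3 (1.89) on LN/PC.

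On LN/PC, added fibroblasts went with 5 higher and 3 lower genes among the 39, against 12.5% of all genes tested (7.8% higher and 4.72% lower). The ligands WNT5B and WNT5A, the carrier WLS and the DKK family genes DKK2 and DKK3 were higher, and WNT10A, WNT7B and AXIN1 were lower. WNT5B, WNT5A, WLS and DKK3 were also higher in fibroblasts than in the epithelium, while DKK2 had to differ in both comparisons. How many of all genes called higher on LN/PC were also higher in fibroblasts was not counted. WNT10A and WNT7B were at 0 in fibroblasts. The median log2 change was -0.24 over the 39 genes, also with DKK2 set to its bound, and -0.04 over all genes. All 18 fibroblast markers were higher in LN/PC co-cultures, and the median over them of the excess over LN/PC monocultures was 22.4%, 14.1% and 29% of the fibroblast level in the 3 libraries (mean 21.8 ± 7.47%, SD, n = 3), against 0.0281 ± 0.0255% on silk (p = 0.1 by an exact permutation test, two-sided, which cannot go lower with 3 libraries a group). The part of this excess in the results below was not tested.

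WNT5B had 744, 429.5 and 603 normalized counts in LN/PC co-cultures, against 139, 127 and 119.5 in LN/PC monocultures (2.16 ± 0.24, adjusted p = 7.49e-06). Its excess was 59.5%, 29.1% and 45.9% of the difference between fibroblasts and LN/PC monocultures, and in each library the markers ran from 2.53% to 45.9%, 2.37% to 26.7% and 6.80% to 48.9%. DKK3 had 2923, 1834 and 2644 in LN/PC co-cultures, against 726, 501 and 758 in LN/PC monocultures (1.89 ± 0.18, adjusted p = 1.43e-06), an excess of 37.7%, 19.5% and 33.0%. DKK2 had 22.4, 13.6 and 36.6 in LN/PC co-cultures and 0 in LN/PC monocultures, at least 8.18-fold higher, an excess of 31.7%, 19.2% and 51.8%. WLS had 629, 635 and 801 in LN/PC co-cultures, against 469.7, 402 and 355 in LN/PC monocultures (0.75 ± 0.16, adjusted p = 0.00442). DKK2 passed the filter through the LN/PC co-cultures alone, so it had to differ. WNT5B, DKK3 and WLS were called under every alternative, and the groups did not overlap.

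Other genes of fibroblasts showed smaller excesses. WNT16 had 7.91, 5.47 and 9.17 normalized counts in the LN/PC co-cultures and ROR2 had 8.04, 12.5 and 24.7, against 0 in LN/PC monocultures, an excess of 8.22% to 13.8% for WNT16 and 5.71% to 17.5% for ROR2. RSPO1 had 3.93, 0 and 0, which is about 3 reads in 1 library, an excess of 0.479 ± 0.829% (SD, n = 3). SFRP2 was at 0 in the 3 LN/PC co-cultures. RSPO1 and SFRP2 thus stood under the lowest marker of each library, in 2 of 3 libraries at 0 for RSPO1. AXIN2, which fibroblasts expressed at 774 ± 23.1, averaged 110.0 ± 20.3 in LN/PC co-cultures and 135 ± 5.93 in LN/PC monocultures (SD, n = 3), an excess of -3.84 ± 3.18%. It did not pass the test (-0.30 ± 0.24, adjusted p = 0.447), nor did KREMEN1 (0.30 ± 0.25, adjusted p = 0.489) or ROR1 (0.23 ± 0.27, adjusted p = 0.624).

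The remaining 4 calls on LN/PC ended when some libraries were left out. WNT5A had 457, 335 and 366 normalized counts in LN/PC co-cultures, against 249, 282 and 174 in LN/PC monocultures (0.73 ± 0.20, adjusted p = 0.0233). WNT7B had 399, 414 and 479.8 in LN/PC co-cultures, against 779, 579.9 and 614 in LN/PC monocultures (-0.60 ± 0.18, adjusted p = 0.039). WNT10A had 86.5, 100.3 and 126 in LN/PC co-cultures, against 181, 164 and 235 in LN/PC monocultures (-0.88 ± 0.25, adjusted p = 0.0257). AXIN1 had 327, 516 and 447 in LN/PC co-cultures, against 542, 674 and 696 in LN/PC monocultures (-0.58 ± 0.18, adjusted p = 0.0393). WNT5A was higher, and the other 3 lower, in each co-culture library than in any monoculture library. Without LN/PC co-culture 1, calls ended for AXIN1 (-0.40), WNT5A (0.60), WNT10A (-0.76) and WNT7B (-0.55), and 3 genes were called. Without LN/PC co-culture 2 they ended for WNT10A (-0.86) and WNT7B (-0.58), leaving 5, and without LN/PC co-culture 3 for AXIN1 (-0.62), WNT5A (0.76) and WNT7B (-0.68), leaving 4. Without LN/PC monoculture 1 they ended for WNT10A (-0.92) and WNT7B (-0.47), without LN/PC monoculture 2 for AXIN1 (-0.54), and without LN/PC monoculture 3 for AXIN1 (-0.52), WNT5A (0.53) and WNT10A (-0.73). A fit of these 6 libraries alone called 4 genes and ended the same 4 calls, at adjusted p of 0.0585 to 0.117, and under upper quartile scaling AXIN1 was not called (-0.55).

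Outside the families, 7 of 16 other target genes and 4 of 6 other antagonists were higher with fibroblasts on LN/PC. Of all genes tested 7.8% were higher and 4.72% lower. CCN4 and TWIST1, among these target genes, and APCDD1, among the antagonists, passed the filter through the LN/PC co-cultures alone. They had to differ, and their calls add nothing to their values. CCN4 had 337, 244 and 612 normalized counts in the LN/PC co-cultures and about 2 reads over the LN/PC monocultures, a ratio of 780 with a 95% exact interval of 187 to 5582. APCDD1 had 76.9, 72.9 and 198 in LN/PC co-cultures and 0 in LN/PC monocultures. Of the target genes 1 was lower (median log2 0.53 over the 16). The antagonists had a median of 4.39 (4.23 with APCDD1 at its bound), and of 11 planar polarity and co-receptor genes 1 was higher and 3 lower (median -0.15). The 24 core genes had a median of -0.06. CELSR1, which the epithelium expresses, had 974, 1271 and 1283 in LN/PC co-cultures, against 2644, 2088 and 2104 in LN/PC monocultures (-0.96 ± 0.16, adjusted p = 0.000397), without overlap.

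**Figure D5:**
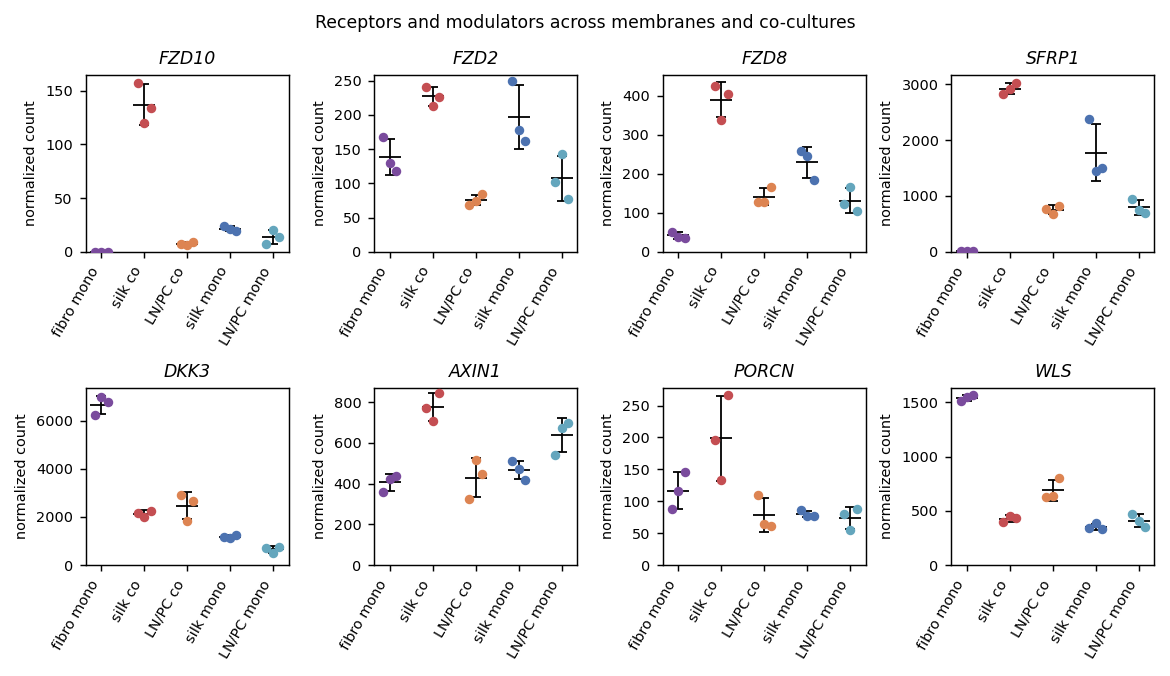
Normalized counts of 8 genes in each library (points), with group means and SD (bars, n = 3), for fibroblast monocultures, silk and LN/PC co-cultures, and silk and LN/PC monocultures. FZD10 stood at 120.0 to 157 in silk co-cultures and at 24.4 or less in all other libraries, and WLS and DKK3 were highest in fibroblasts.

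Whether the effect of added fibroblasts differed with the membrane was tested as the interaction, the log2 change on silk minus that on LN/PC. It was called for 9 of the 39 genes, 5 higher and 4 lower on silk, against 7.73% of all genes tested (3.15% higher and 4.59% lower). Of the calls over all genes 40.7% were higher, or 30.4% under upper quartile scaling. WNT5B (-2.19 ± 0.34, adjusted p = 0.000592) gained less with fibroblasts on silk, and FZD10 (3.30 ± 0.54, adjusted p = 0.000861) and AXIN1 (1.31 ± 0.25, adjusted p = 0.00288) gained more. These 3 were called under every alternative. DKK2, among the 9, was at 0 in 9 of the 12 libraries and passed the filter through the LN/PC co-cultures alone, so it had to differ and its call adds nothing to its values. Its fitted difference was -4.55, or -2.47 with a pseudocount of 5. The median was 0.24 over the 39 genes and 0.03 over all genes. AXIN1 was higher with fibroblasts on silk (0.73) and lower on LN/PC (-0.58). FZD10 was higher with fibroblasts on silk (2.61) and did not pass the test on LN/PC (-0.69 ± 0.38, adjusted p = 0.264). All 18 fibroblast markers gained less on silk, and their part in the result was not tested.

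The other 5 interaction calls were DKK3 (-1.03 ± 0.26, adjusted p = 0.0215), WNT5A (-1.08 ± 0.28, adjusted p = 0.0266), WNT10A (1.31 ± 0.35, adjusted p = 0.0283), FZD5 (1.43 ± 0.39, adjusted p = 0.034) and WNT7B (0.91 ± 0.26, adjusted p = 0.0401). Without silk co-culture 1, calls ended for WNT5A (-1.04), WNT10A (1.28), FZD5 (1.41) and WNT7B (0.97), without silk co-culture 2 for DKK3 (-0.98), WNT5A (-1.10) and WNT7B (0.93), and without silk co-culture 3 for WNT5A (-1.09), WNT10A (1.25), FZD5 (1.29) and WNT7B (0.81). Without LN/PC co-culture 1 they ended for all 5, at -0.89 for DKK3, -0.95 for WNT5A, 1.18 for WNT10A, 1.24 for FZD5 and 0.85 for WNT7B, which left 3 genes called, since DKK2 was not tested there. Without LN/PC co-culture 2 they ended for WNT10A (1.29) and WNT7B (0.88), and without LN/PC co-culture 3 for DKK3 (-0.97), WNT5A (-1.11) and WNT7B (0.99). Without silk monoculture 2 they ended for WNT5A (-1.03), WNT10A (1.35), FZD5 (1.42) and WNT7B (0.88), and without silk monoculture 3 for DKK3 (-0.99), WNT10A (1.08), FZD5 (1.25) and WNT7B (0.74). Without LN/PC monoculture 1 the call of WNT7B ended (0.78), without LN/PC monoculture 2 that of FZD5 (1.11), and without LN/PC monoculture 3 that of WNT10A (1.16). Upper quartile scaling ended the calls of FZD5 (1.34) and WNT7B (0.82).

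Across the 5 groups, 4 of the 43 genes were called in no pairwise comparison. These were DKK1, FZD1, LRP5 and WNT2B. FZD1 averaged 299 ± 37.7 normalized counts in fibroblasts, 324 ± 13.6 in silk co-cultures, 303 ± 63.7 in co-cultures on LN/PC, 297 ± 35.1 in silk monocultures and 229 ± 85.6 in those on LN/PC (SD, n = 3), and LRP5 ran from 351 to 708 over all 15 libraries. WNT2B stayed under 50 in all of them. In all, 7 genes averaged under 100 in every group, namely WNT2B, WNT3, WNT9A, WNT16, DKK2, SFRP2 and TCF7.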

How the data were processed

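Poly-A RNA of 15 libraries was sequenced, with 3 libraries in each of 5 groups taken from the sample titles. The deposited table holds log2 values for 15790 genes. Salmon 1.10.3 and DESeq2 are named, without a role, per the submitters' processing notes, and a variance-stabilizing transformation is inferred from the values; for the genome build, annotation and strand setting, the sources used here give nothing. All values share a floor of 5.53664461, and they were turned back to the linear scale of normalized counts by inverting that transformation. The deposited log2 values were kept as an alternative. The values hold too few whole multiples of 1 read for a count model: of the low values, 34.7% to 55.1% were whole to within 0.1 read. Totals were 9080000 to 12660000 per library, or about 8580000 to 14160000 reads, with 1 read worth 0.753 to 1.3. Reads carry no molecular identifiers, so intervals and floors cover counting error only.

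Genes at 10 or more in at least 3 libraries were tested on log2(normalized count + 1) with limma 3.58.1 (trend) in R 4.3.3, with Benjamini-Hochberg adjustment over all tested genes. The 9 monoculture libraries were fitted together for the cell type comparison, and the 12 epithelial and co-culture libraries for the others. The script was tested on simulated data. Values in every library are given for genes called in a pairwise comparison with a group mean of at least 100; the other genes are given by means or ranges. From the other lists, up to 3 called genes per list and comparison with a group mean of at least 100, by largest change, could be named; those printed were picked from these after their values were seen. Levels between genes were compared per kilobase of median GENCODE v29 protein-coding transcript length. The genes, lists and tests were chosen with earlier results of these data known. Alternatives were the deposited log2 values, a pseudocount of 5, no filter, upper quartile scaling, the compared groups alone, the replicate number as a block, and leaving out each library.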

Additional observations from a re-analysis of the deposited data

Results flagged for a closer look

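For 9 genes the effect of added fibroblasts differed between silk and LN/PC by limma's interaction test, with Benjamini-Hochberg adjusted p under 0.05. The log2 change on silk minus that on LN/PC was 3.3 for FZD10, 1.43 for FZD5, 1.31 for AXIN1, 1.31 for WNT10A and 0.906 for WNT7B. It was -2.19 for WNT5B, -1.08 for WNT5A and -1.03 for DKK3. The fitted value for DKK2 was -4.55, but the gene was at 0 in silk co-cultures, silk monocultures and LN/PC monocultures. In this fit it passed the filter through the LN/PC co-cultures alone, so it had to differ. With a pseudocount of 5 the value was -2.47.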

How the results depend on the processing

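Of 1185 values under the alternatives, for genes called in the main tests, 1034 kept direction and side of the threshold, 151 lost the call and 0 reversed. Genes that had to differ are included, and calls gained under an alternative are left out. Without LN/PC monoculture 2, for example, 13 genes were called between monocultures, and 9 of them were called with all libraries. Leaving out each library gave 29 to 36 called genes for fibroblasts against epithelial monocultures (36 with all libraries), 5 to 13 for silk against LN/PC monocultures (12), 16 to 19 for silk against LN/PC co-cultures (21), 1 to 5 for silk co-cultures against silk monocultures (5), 3 to 9 for LN/PC co-cultures against LN/PC monocultures (8) and 3 to 10 for the interaction (9). Over all genes the same ranges were 6865 to 8673 (8460), 695 to 3208 (1685), 3415 to 4745 (5214), 207 to 559 (545), 753 to 2007 (1807) and 465 to 1359 (1116). With the compared groups alone, 5 of the genes and 754 of all genes were called between monocultures, 1174 of all genes between silk co-cultures and silk monocultures, and 4 of the genes and 1088 of all genes between LN/PC co-cultures and LN/PC monocultures. With the replicate number as a block, 35, 11, 19, 5, 6 and 7 of the genes were called in the 6 comparisons as ordered above. The block ended the calls of WNT9A in the fibroblast comparison, WNT7B between monocultures, ZNRF3 and ROR1 between co-cultures, AXIN1 and WNT7B on LN/PC, and FZD5 and WNT7B in the interaction, at adjusted p of 0.0540 to 0.0624 by limma. Over the 4 epithelial groups, 2 of 18 pairs of same-numbered libraries had a correlation of deviations over 0.1 (range -0.254 to 0.189, median -0.066). Of differently numbered pairs 6 of 36 did (range -0.254 to 0.327), so the numbers gave no sign of pairing. With 3 libraries a group this check cannot exclude it. Median log2 changes over the genes with 1 library left out ran from -0.80 to 0.04, from 0.00 to 0.21, from 0.23 to 0.40, from 0.03 to 0.14, from -0.26 to -0.15 and from 0.16 to 0.41 in the same order. Upper quartile scaling took the share of higher calls in silk co-cultures against silk monocultures to 66.2% (77.1% without it) and in the interaction to 30.4% (40.7%), and the median of all genes in the fibroblast comparison to -0.18 (-0.02). DKK2 was not tested without any single LN/PC co-culture, nor WNT16, DKK2, ROR2, RSPO1 and SFRP2 without any single fibroblast library. Depth limits genes near 3 reads, such as RSPO1 in LN/PC co-cultures.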
